A study of Arabidopsis thaliana with 9 samples.

Results

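The genes described here are COR15A, COR15B, KIN1, KIN2, COR47 and LTI30, 6 Arabidopsis genes of the cold and dehydration response. They were found by name: a probe set was taken where the array annotation pairs it with a single gene and that gene, under its current RefSeq symbol, is one of the 6. Each gene had exactly 1 such probe set, so 6 probe sets stand for 6 of the 16550 genes that could be tested, and none was lost to a filter on low values. Transcript levels had been measured on whole-transcript Affymetrix arrays in whole Arabidopsis thaliana plants, grown and exposed for 21 days at 25 degrees C with 16 h of light and 8 h of dark. One group of 3 arrays came from plants given 4'-OH-2,5-DCB, the 4'-hydroxylated form of 2,5-dichlorobiphenyl, at 5 mg per L. Another group of 3 came from plants given 2,5-dichlorobiphenyl itself (2,5-DCB), a polychlorinated biphenyl, at 50 mg per L, and the control group of 3 came from plants given acetone, the solvent of both compounds. All groups shared the sucrose-containing agar medium and the solvent, and the compounds were given at different doses. Each treatment had 6 boxes of 5 plantlets. No source used here says which of them went to which array, which strain they were or at what hour they were harvested. The p-values therefore measure only how far these arrays spread, and part of that may be technical.

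In a plant that is chilled, the CBF (DREB1) transcription factors bind a short element, the C-repeat, in the promoters of the COR (cold-regulated) genes and switch them on. Drought and salt act on many of the same genes through abscisic acid, and the circadian clock also sets how strongly they respond. Their products are mostly small, very hydrophilic proteins that stay soluble and shield membranes or other proteins when water is withdrawn by ice or drying. COR15A and COR15B encode proteins of the chloroplast stroma that protect chloroplast membranes during freezing. KIN1 and KIN2 encode small proteins first compared with a fish antifreeze protein. COR47 encodes an acidic dehydrin, and LTI30 (also XERO2) a basic dehydrin that binds membranes.

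One array stood apart before any gene was compared. On 4'-OH-2,5-DCB replicate 1 the SD of the log2 signal across tested probe sets was 1.68, and the remaining 8 arrays had SDs of 2.13 to 2.203. It correlated with no array above 0.927, whereas among the remaining 8 the lowest r was 0.956 (across probe sets, which are not independent). Array medians lay between 4.69 and 4.91. The 25th percentile of the tested probe sets lay at 3.72 on that array and at 2.80 to 3.01 on the others, and a signal near or below it may be background. The changes of the 6 genes under 4'-OH-2,5-DCB are given with and without that array, and leaving it out ended no call of theirs against control. The tested probe sets reach both green and root tissue of the labelled whole plants. The green shoot markers RCA and PRK (2 of 10 listed could be tested) and the root marker PYK10 had a log2 signal of 8.34 or more on every array. Of 12 listed root markers 4 could be tested, and the others were dimmer. BGLU21 had 4.91 to 8.49, EXPA7 2.99 to 4.23 and EXPA18 2.75 to 3.51, the last 2 near the 25th percentile.

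Under 4'-OH-2,5-DCB, COR15A, COR15B, KIN2 and COR47 fell, KIN1 and LTI30 did not pass the test, and none of the 6 rose. That is 4 of 6 called lower, where 1.90% of all 16722 tested probe sets were called lower (318 of them), 1.00% higher and 2.91% in either direction. The call rests on limma with a Benjamini-Hochberg adjusted p under 0.05 over all tested probe sets. Under 2,5-DCB, COR15A, COR15B, KIN2, COR47 and KIN1 fell, so 5 of 6 were called lower and 0 higher, against 2.82% of tested probe sets called lower (472), 1.82% called higher and 4.65% in either direction. The median log2 change of the 6 was -2.36 under 4'-OH-2,5-DCB, where the median over all tested probe sets was 0.10. Under 2,5-DCB it was -1.85, against 0.04 over all. The 6 genes were chosen with earlier results of these data known, so their counts beside these shares are a description and no independent test. Both comparisons use the same 3 control arrays, so their results are not independent of each other. In RNA from whole plants, fewer cells that express a gene and less RNA per cell cannot be told apart.

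**Figure D1:**
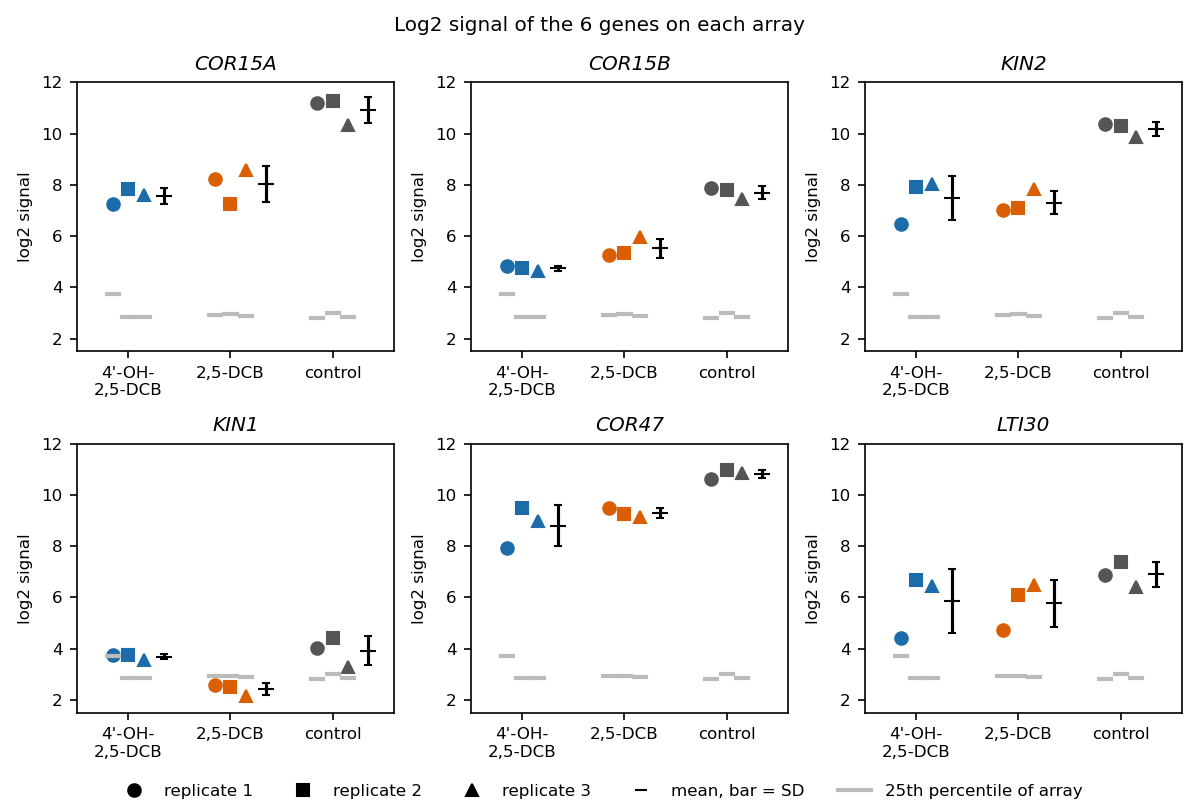
Log2 signal of each of the 6 genes on the 9 arrays, with a panel per gene, groups on the horizontal axis and the replicate given by the symbol; the black mark and bar are the mean and SD of 3 arrays, and grey dashes mark the 25th percentile of tested probe sets on each array. COR15A, COR15B, KIN2 and COR47 lie below every control array on all 6 exposed arrays, whereas KIN1 overlaps the control under 4'-OH-2,5-DCB and LTI30 overlaps it in both exposed groups.

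Of the chloroplast pair, COR15A had the lowest fitted change of the 6 genes in both comparisons. COR15A had log2 signals of 7.24, 7.83 and 7.61 on the 4'-OH-2,5-DCB arrays (replicates 1 to 3), 8.23, 7.24 and 8.60 on the 2,5-DCB arrays, and 11.20, 11.27 and 10.34 on the control arrays. All 6 exposed arrays lay below all controls, with a gap of 2.51 between the nearest arrays for 4'-OH-2,5-DCB and of 1.74 for 2,5-DCB. Under 4'-OH-2,5-DCB the fitted log2 change was -3.37 (SE 0.37, 95% interval -4.21 to -2.54, adjusted p 0.0032 in limma), which is 10.4-fold lower and the fall of rank 2 among all 16722 tested probe sets. Under 2,5-DCB it was -2.91 (-3.75 to -2.08, adjusted p 0.00398), 7.53-fold lower and the fall of rank 12. Without the array that stood apart these changes were -3.21 (adjusted p 0.00503) and -2.91 (adjusted p 0.00232).

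COR15B, which encodes a close paralog of the COR15A protein, had 4.84, 4.75 and 4.65 on the 4'-OH-2,5-DCB arrays, 5.26, 5.36 and 5.96 on the 2,5-DCB arrays and 7.87, 7.80 and 7.43 on the control arrays. It was the only one of the 6 whose 3 groups did not overlap at all. The log2 change was -2.96 under 4'-OH-2,5-DCB (SE 0.21, 95% interval -3.44 to -2.48, adjusted p 0.00111), the fall of rank 7 by size. By p-value it ranked 2 in that comparison. Under 2,5-DCB it was -2.18 (-2.66 to -1.69, adjusted p 0.00173), the fall of rank 62. The SD between arrays was 0.095 under 4'-OH-2,5-DCB and 0.38 under 2,5-DCB, against 0.24 in the control. Without 4'-OH-2,5-DCB replicate 1 the changes were -3.01 (adjusted p 0.00123) under 4'-OH-2,5-DCB and -2.18 (adjusted p 0.00082) under 2,5-DCB. The falls of the paralogs were compared by the difference COR15A minus COR15B within each array. It moved by -0.42 under 4'-OH-2,5-DCB and by -0.74 under 2,5-DCB, relative to control, and the groups overlapped in both (exact permutation p 0.3 and 0.2, two-sided; 0.1 is the smallest that 3 against 3 arrays allow). These are 2 of 9 such differences computed, with Benjamini-Hochberg adjusted p-values of 0.45 and 0.36 over the 9.

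KIN2 had a fitted change near that of COR15A under 2,5-DCB and came after both COR15 genes under 4'-OH-2,5-DCB. Its log2 signals were 6.49, 7.93 and 8.04 on the 4'-OH-2,5-DCB arrays, 7.01, 7.08 and 7.84 on the 2,5-DCB arrays and 10.37, 10.31 and 9.88 on the control arrays. The lowest control array was thus above the highest exposed array by 1.84 or more. KIN2 changed by -2.70 on the log2 scale under 4'-OH-2,5-DCB (SE 0.40, 95% interval -3.61 to -1.79, adjusted p 0.0113, 6.50-fold lower) and -2.88 under 2,5-DCB (-3.79 to -1.97, adjusted p 0.00604, 7.35-fold lower). These were the falls of rank 17 and rank 13. Without 4'-OH-2,5-DCB replicate 1, the array on which KIN2 was lowest, the change under 4'-OH-2,5-DCB was -2.20 (adjusted p 0.00389). The call under 4'-OH-2,5-DCB was lost without control replicate 2 (adjusted p 0.0644). It was also lost when only the 6 arrays of these groups were fitted (adjusted p 0.055).

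KIN1, the neighbour and paralog of KIN2, passed under 2,5-DCB alone, and its signal was dim. That the exposures differ for KIN1 did not pass a test of its own. It had 3.76, 3.73 and 3.56 on the 4'-OH-2,5-DCB arrays, 2.59, 2.51 and 2.15 on the 2,5-DCB arrays and 4.03, 4.43 and 3.30 on the control arrays. The 2,5-DCB arrays lay below all others, while the 4'-OH-2,5-DCB arrays lay inside the control range. All 3 signals under 2,5-DCB were below the 25th percentile of their arrays, so that side may be background and the size of the fall is uncertain. The log2 change was -0.24 under 4'-OH-2,5-DCB (95% interval -0.84 to 0.37, adjusted p 0.632), a value that was 0.0188 without control replicate 2. Under 2,5-DCB it was -1.50 (-2.11 to -0.89, adjusted p 0.0175). Leaving out control replicate 1 (adjusted p 0.0653) or control replicate 2 (0.0679) ended that call. So did leaving out 2,5-DCB replicate 2 (0.0686) or 2,5-DCB replicate 3 (0.082). Without 4'-OH-2,5-DCB replicate 1 the change was -0.27 (adjusted p 0.658) under 4'-OH-2,5-DCB and -1.50 (adjusted p 0.00974) under 2,5-DCB.

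KIN1 was also set against KIN2 on the same arrays. The difference KIN1 minus KIN2 was higher than in the control by 2.46 under 4'-OH-2,5-DCB and by 1.38 under 2,5-DCB, and in neither case did exposed and control arrays overlap. The exact permutation p was 0.1 in both, the smallest possible with 3 against 3 arrays, and 0.3 after adjustment over the 9 differences. KIN1 was dim even in the control, at 3.30 to 4.43 where the 25th percentile of those arrays was 2.80 to 3.01. A signal this dim limits how large a fall could be seen. Under 2,5-DCB KIN1 still reached 2.15 to 2.59, while under 4'-OH-2,5-DCB it stayed at 3.56 to 3.76. The difference does not settle whether the paralogs responded differently, and the part of the dim signal in it was not tested. The probe sets of such close paralogs may also not measure them separately.

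Of the dehydrin genes, COR47 fell in both exposed groups and LTI30 passed in neither. COR47 had 7.91, 9.51 and 8.98 on the 4'-OH-2,5-DCB arrays, 9.51, 9.27 and 9.14 on the 2,5-DCB arrays and 10.64, 10.98 and 10.85 on the control arrays. The nearest control array was 1.13 above the highest exposed array in both comparisons. COR47 changed by -2.02 on the log2 scale under 4'-OH-2,5-DCB (SE 0.35, 95% interval -2.80 to -1.24, adjusted p 0.0185), the fall of rank 65, and -1.52 under 2,5-DCB (-2.30 to -0.74, adjusted p 0.0407), of rank 189. Without 4'-OH-2,5-DCB replicate 1, on which COR47 was lowest of all arrays, the change was -1.58 under 4'-OH-2,5-DCB (adjusted p 0.00427). Its change under 2,5-DCB then stayed at -1.52 with an adjusted p of 0.00161, since all arrays share 1 estimate of the spread.

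The COR47 calls depended on single arrays. Leaving out 1 control array gave adjusted p-values of 0.0575, 0.0931 and 0.0721 under 4'-OH-2,5-DCB (replicates 1 to 3) and of 0.0957, 0.17 and 0.128 under 2,5-DCB. Leaving out 1 of the 2,5-DCB arrays gave 0.0861, 0.152 and 0.15 under 2,5-DCB. Under 2,5-DCB the adjusted p was also 0.0588 without 4'-OH-2,5-DCB replicate 3 and 0.0612 when all probe sets were tested. The log2 change under 2,5-DCB stayed between -1.62 and -1.43 over these settings.

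LTI30 had 4.41, 6.70 and 6.44 on the 4'-OH-2,5-DCB arrays, 4.72, 6.09 and 6.50 on the 2,5-DCB arrays and 6.89, 7.39 and 6.40 on the control arrays. Replicate 1 of each exposed group was far below the rest, and other exposed arrays reached into the control range. The SDs between arrays were therefore 1.25 under 4'-OH-2,5-DCB and 0.93 under 2,5-DCB, against 0.50 in the control. The log2 change was -1.05 under 4'-OH-2,5-DCB (95% interval -2.47 to 0.38, adjusted p 0.417) and -1.13 under 2,5-DCB (-2.55 to 0.29, adjusted p 0.462). These intervals hold changes as large as that of COR47 as well as 0. Without replicate 1 of 4'-OH-2,5-DCB the change there was -0.33, and without replicate 1 of 2,5-DCB the change under 2,5-DCB was -0.60. The difference COR47 minus LTI30 was lower than in the control by 0.97 under 4'-OH-2,5-DCB, without overlap, and by 0.39 under 2,5-DCB, with overlap (exact permutation p 0.1 and 0.6; 0.3 and 0.6 after adjustment over the 9 differences).

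**Figure D2:**
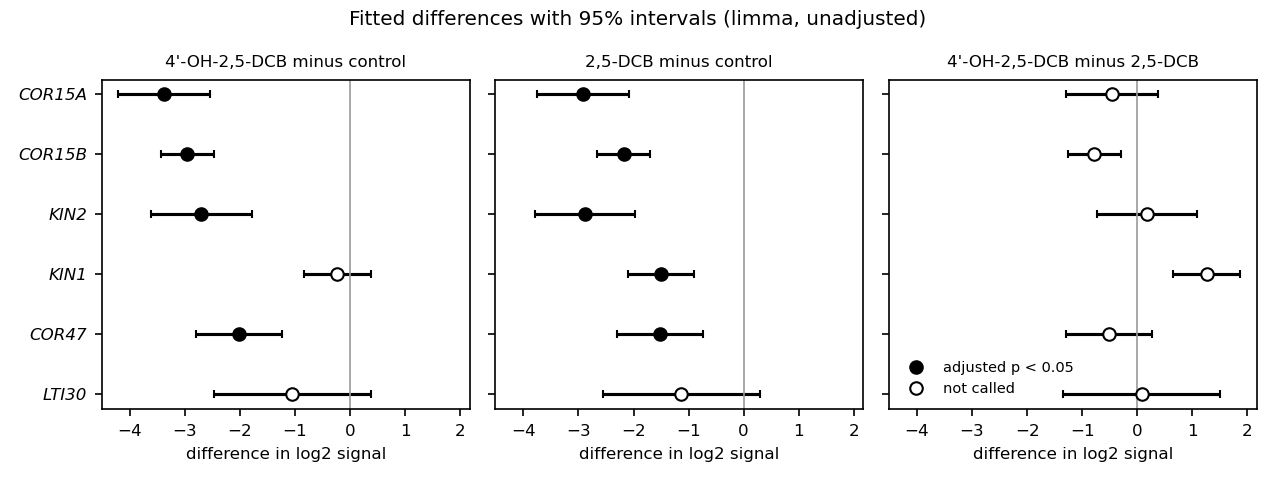
Fitted log2 differences of the 6 genes for each pair of groups, with 95% intervals from limma that are not adjusted for the number of probe sets; filled points passed an adjusted p of 0.05. The intervals of COR15A, COR15B, KIN2 and COR47 lie below 0 for each exposure against control, the interval of KIN1 does so for 2,5-DCB, and no point is filled for 4'-OH-2,5-DCB against 2,5-DCB.

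Counted by array, the falls were spread over all exposed arrays. Below the lowest control array lay 5, 4 and 4 of the 6 genes on the 4'-OH-2,5-DCB arrays (replicates 1 to 3) and 6, 6 and 5 on the 2,5-DCB arrays. The genes not below it were KIN1 and LTI30 under 4'-OH-2,5-DCB (KIN1 alone on replicate 1) and LTI30 on 2,5-DCB replicate 3. Of all tested probe sets, 27.1% to 33.5% lay below the lowest control array on a 4'-OH-2,5-DCB array and 26.8% to 29.7% on a 2,5-DCB array. Complete separation of exposed from control arrays was found for 4 of the 6 genes under 4'-OH-2,5-DCB and for 5 under 2,5-DCB. Over all tested probe sets 11.4% lay lower without overlap under 4'-OH-2,5-DCB and 14.1% under 2,5-DCB. Either direction counted, 22.6% and 30.9% were separated.

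The exposures were also set side by side, although the doses were 5 mg per L of 4'-OH-2,5-DCB and 50 mg per L of 2,5-DCB. COR15A, COR15B and COR47 were lowest under 4'-OH-2,5-DCB, then 2,5-DCB, then control, and KIN1, KIN2 and LTI30 lowest under 2,5-DCB, then 4'-OH-2,5-DCB, then control. In this order the exposed neighbours overlapped for COR15A, COR47, KIN2 and LTI30, and 4'-OH-2,5-DCB overlapped the control for KIN1 and LTI30. COR15B averaged 4.74 ± 0.095 under 4'-OH-2,5-DCB and 5.53 ± 0.38 under 2,5-DCB (SD, n = 3 each), a difference of -0.78 (95% interval -1.26 to -0.30). KIN1 averaged 3.68 ± 0.11 under 4'-OH-2,5-DCB and 2.42 ± 0.24 under 2,5-DCB (SD, n = 3 each), a difference of 1.27 (0.66 to 1.87). Neither passed, with limma adjusted p-values of 0.261 and 0.174. Neither group overlapped the other for these 2 genes, as for 15.2% of all tested probe sets (8.35% with 4'-OH-2,5-DCB the lower). For the others, 4'-OH-2,5-DCB minus 2,5-DCB gave -0.46 for COR15A (-1.30 to 0.37), -0.50 for COR47 (-1.28 to 0.27), 0.18 for KIN2 (-0.73 to 1.09) and 0.08 for LTI30 (-1.34 to 1.503). In limma 0 of the 6 genes and 0% of all tested probe sets passed in this contrast, while 2 of the 6 and 1656 of all had an unadjusted p under 0.05. With array weights, which give 4'-OH-2,5-DCB replicate 1 a weight of 0.065, KIN1 passed (difference 1.24, adjusted p 0.0436).

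**Figure D3:**
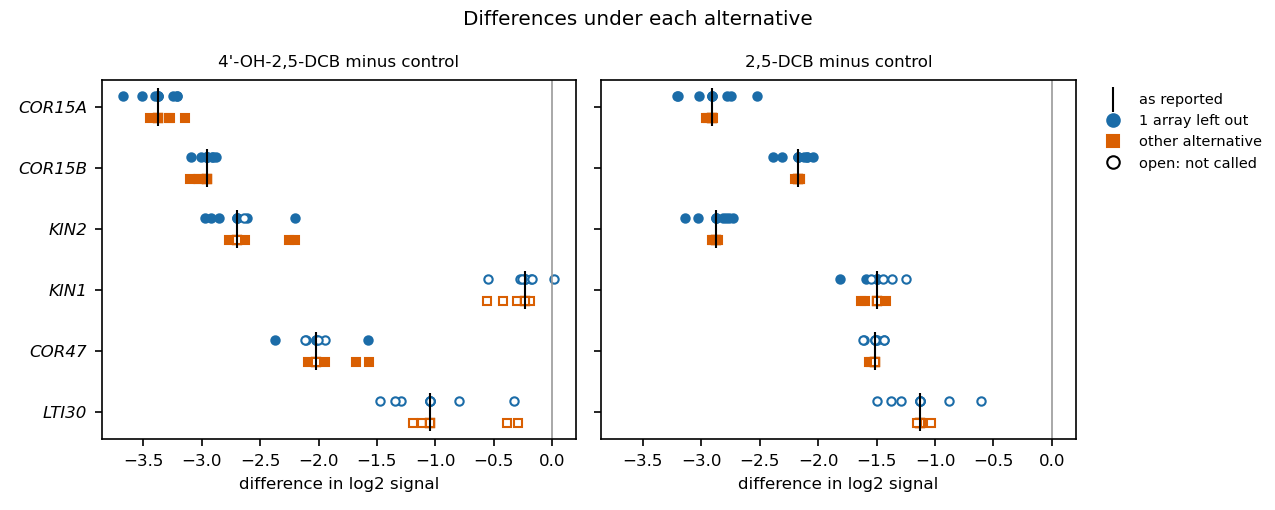
Log2 difference from control of each gene as reported (black line) and under each alternative, for 4'-OH-2,5-DCB on the left and 2,5-DCB on the right; circles leave out 1 array, squares are other settings, and open symbols did not pass. COR15A and COR15B stay filled throughout, the COR47 values on the right lie close together but many are open, and the values of LTI30, and of KIN1 on the left, are all open although overlapping symbols there can look filled.

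How the 6 genes varied together is given as a description, since for COR15A, COR15B, COR47 and KIN2 the exposed and control arrays are separate clusters, and an r over all 9 includes that gap. Among COR15A, COR15B, COR47 and KIN2 the 6 pairwise Pearson correlations over the 9 arrays ran between 0.871 and 0.968. Those with KIN1 ran between 0.349 and 0.561, and those with LTI30 between 0.349 and 0.775. Without the array that stood apart, those with KIN1 ran between 0.470 (COR15B) and 0.757 (KIN2). Those with LTI30 then ran between 0.460 (COR47) and 0.706 (KIN2), and those among COR15A, COR15B, COR47 and KIN2 between 0.897 and 0.965. After each group's mean was taken off, KIN2 and LTI30 had the highest r, 0.895, followed by COR47 with KIN2 (0.657) and COR15A with COR15B (0.631). COR15B with COR47 had the lowest, -0.309. These r values include the array that stood apart, on which KIN2, COR47 and LTI30 each had their lowest signal (6.49, 7.91 and 4.41). How far that array sets these r values was not tested. Control replicate 3 was the lowest control array for COR15A, COR15B, KIN1, KIN2 and LTI30, but not for COR47.

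Genes outside the 6 were ranked by the likeness of their profile to the mean of the 6, as Pearson r over the 9 arrays. The highest were AT4G32030 (0.993), NAXT1 (0.991), AT4G21570 (0.989), AT1G78070 (0.988), AT1G61890 (0.986), AT3G19240 (0.985), CML38 (0.984), OPCL1 (0.983), AT2G25460 (0.979) and AT1G18740 (0.979). NAXT1 encodes a nitrate excretion transporter, CML38 a calmodulin-like protein and OPCL1 a CoA ligase of jasmonic acid synthesis. Being chosen for this likeness, all 10 had lower means in both exposed groups than in the control, with differences between -2.78 and -1.14 under 4'-OH-2,5-DCB and between -3.05 and -1.07 under 2,5-DCB. Gene by gene, the closest profiles were those of AT3G47080 to COR15A (0.988), AT5G65205 to COR15B (0.983), AT1G72940 to KIN2 (0.994), AT1G66760 to COR47 (0.987), AT4G12005 to KIN1 (0.969) and AT1G06640 to LTI30 (0.970). Next in rank came AT5G08510 and AT1G15010 for COR15A, AT1G13550 and AT4G20830 for COR15B, AT1G78070 and AT4G32030 for KIN2, and AT1G53210 and AT2G29510 for COR47. For KIN1 they were AT1G78020 and DLAH, and for LTI30 AT5G63830 and AT1G17360. Without 4'-OH-2,5-DCB replicate 1, AT4G32030 and NAXT1 ranked 2 and 3 for the mean of the 6 (r 0.995 and 0.994), and AT5G63830 and AT1G17360 took ranks 35 and 66 for LTI30.

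**Figure D4:**
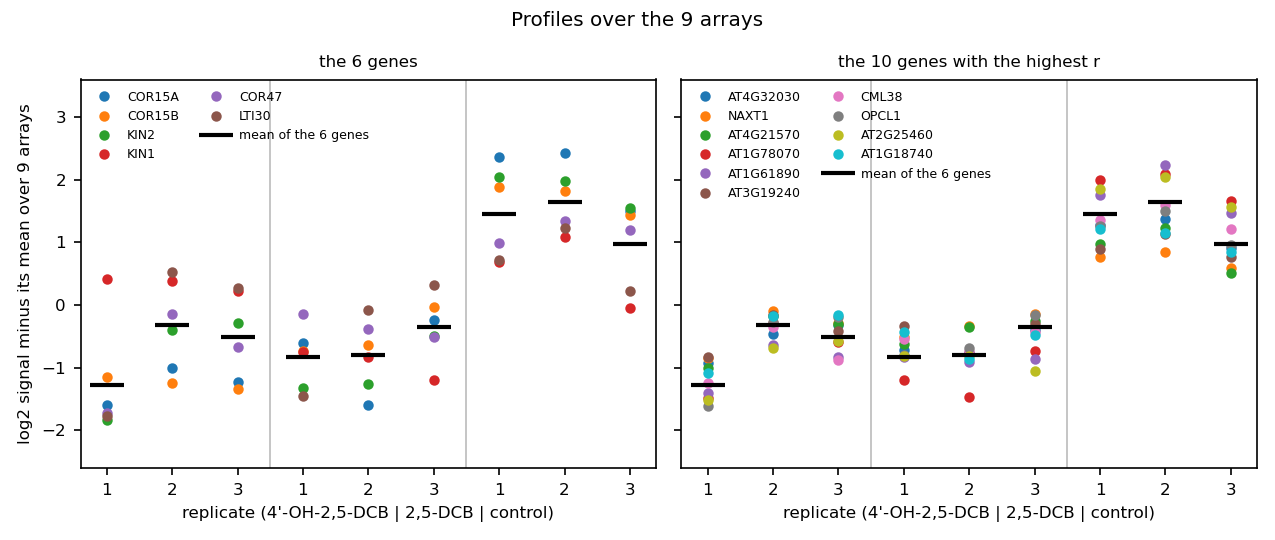
Log2 signal minus its mean over the 9 arrays, by array, for the 6 genes (left) and for the 10 other genes with the highest r to their mean (right); black marks are the mean of the 6. The exposed arrays lie below the control arrays in that mean, lowest on 4'-OH-2,5-DCB replicate 1, and KIN1 departs upward from it there.

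Chromosomal position was looked at because 4 of the 6 genes lie in pairs. COR15A and COR15B are next to each other on chromosome 2 in RefSeq, and KIN1 and KIN2 on chromosome 5, with 0 protein-coding genes between the members of a pair. COR47 is on chromosome 1 and LTI30 on chromosome 3. Of the 5 protein-coding genes on each side of these 4 places, 40 in all, 26 could be tested, and 0 were called under either exposure in limma. The shares called over all tested probe sets were 2.91% under 4'-OH-2,5-DCB and 4.65% under 2,5-DCB. With so few neighbours, a count of 0 does not set them apart from these shares. At an unadjusted p under 0.05 there were 7 of 26 in each comparison, while 2888 of all 16722 tested probe sets under 4'-OH-2,5-DCB and 2697 under 2,5-DCB had one. The 7 tested neighbours of the COR15 pair had log2 changes between -0.26 and 0.60 under 4'-OH-2,5-DCB and between -0.17 and 0.59 under 2,5-DCB. The lowest neighbour value was that of AT1G20490, near COR47, at -1.69 under 4'-OH-2,5-DCB (adjusted p 0.0917).

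The rest of the pathway was thinly covered. None of the 13 listed genes of abscisic acid synthesis and breakdown and none of the 32 of its receptors and signalling chain were among the tested genes, nor was any of the CBF genes, so they are not analysed here. Over all cold, drought and abscisic acid lists, 19 of 205 genes other than the 6 could be tested. Under 4'-OH-2,5-DCB 2 of the 19 were lower and 1 higher, with a median log2 change of -0.39. Under 2,5-DCB 3 were lower and 0 higher, with a median of -0.13. Of all tested probe sets, 1.90% were called lower and 1.00% higher under 4'-OH-2,5-DCB, and 2.82% and 1.82% under 2,5-DCB.

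On the list of CBF and cold regulators, 2 of 21 genes could be tested. DREB2C and ABR1, tested on a wider list found by wording, passed in neither comparison with control. Under 4'-OH-2,5-DCB they changed by 0.91 and -1.57 (limma adjusted p 0.258 and 0.148). Under 2,5-DCB they changed by 1.53 and -1.41 (adjusted p 0.0522 and 0.183). PIF7, a phytochrome-interacting transcription factor known to repress CBF genes, had 6.33, 6.13 and 6.36 on the 4'-OH-2,5-DCB arrays, 6.24, 6.07 and 6.29 on the 2,5-DCB arrays and 6.99, 6.83 and 6.84 on the control arrays. Exposed and control arrays did not overlap. Over all tested probe sets 11.4% lay lower without overlap under 4'-OH-2,5-DCB and 14.1% under 2,5-DCB. The log2 change was -0.62 under 4'-OH-2,5-DCB (adjusted p 0.062, and 0.0244 without replicate 1 of that group) and -0.69 under 2,5-DCB (adjusted p 0.0327). Under 2,5-DCB the call was lost without any 1 of the control or 2,5-DCB arrays (adjusted p between 0.0857 and 0.148). STZ, a zinc finger repressor of the cold and salt response, did not pass, with log2 changes of -0.84 and -0.76 and adjusted p-values of 0.26 and 0.326. It had 9.05, 10.61 and 10.43 on the 4'-OH-2,5-DCB arrays and 10.06, 10.09 and 10.17 on the 2,5-DCB arrays. The control arrays had 10.91, 10.85 and 10.84, so STZ too was lower without overlap in both exposed groups. The SDs were 0.85, 0.057 and 0.036 in that order. All arrays share 1 estimate of the spread, so the low 4'-OH-2,5-DCB replicate 1 enters both adjusted p-values.

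Of the 8 listed other dehydrin loci 4 could be tested, and 1 fell in each comparison. Over all tested probe sets 1.90% were called lower under 4'-OH-2,5-DCB and 2.82% under 2,5-DCB. The dehydrin gene that fell, LEA (AT2G21490), had 4.75, 4.33 and 4.81 on the 4'-OH-2,5-DCB arrays, 4.19, 3.79 and 4.71 on the 2,5-DCB arrays and 6.84, 6.74 and 6.31 on the control arrays. Every exposed array lay below every control array, as for 11.4% of all tested probe sets under 4'-OH-2,5-DCB and 14.1% under 2,5-DCB. LEA changed by -2.00 on the log2 scale under 4'-OH-2,5-DCB (SE 0.26, adjusted p 0.00677) and -2.40 under 2,5-DCB (adjusted p 0.0025). The dehydrin gene AT1G54410 had log2 changes of -0.22 (adjusted p 0.51) and 0.00 (adjusted p 1.00). Of the wider list of late embryogenesis abundant and dehydrin genes by wording, 6 could be tested. In it LEA fell in both comparisons and AT2G46140 rose under 4'-OH-2,5-DCB by 0.77 (adjusted p 0.0316), a call lost without any 1 of the arrays except 4'-OH-2,5-DCB replicate 1, and after quantile normalization (0.46, adjusted p 0.183). AT2G46140 averaged 4.34 under 4'-OH-2,5-DCB, 3.95 under 2,5-DCB and 3.57 in the control.

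Other cold and dehydration target genes gave 3 tested of 28 listed, and in limma 0 were called under either exposure. The shares called over all tested probe sets were 2.91% under 4'-OH-2,5-DCB and 4.65% under 2,5-DCB. COR27, a cold gene that is also under clock control, had log2 changes of -0.39 and 0.30 (adjusted p 0.576 and 0.868). HIS1-3, a drought-inducible linker histone gene, had -0.91 and -0.46 (adjusted p 0.108 and 0.467). The third, AT4G33980, had -1.21 and 0.89 (adjusted p 0.214 and 0.397). At an unadjusted p under 0.05 there were 2 of the 3 under 4'-OH-2,5-DCB (HIS1-3 and AT4G33980) and 0 under 2,5-DCB. Of all 16722 tested probe sets, 2888 under 4'-OH-2,5-DCB and 2697 under 2,5-DCB had one. SRC2, named in RefSeq after a soybean gene regulated by cold, belongs to a list of 159 genes found by wording, of which 13 could be tested. It had 8.21, 8.64 and 8.63 on the 4'-OH-2,5-DCB arrays, 8.11, 8.14 and 8.55 on the 2,5-DCB arrays and 9.80, 9.67 and 9.52 on the control arrays. Its exposed arrays lay lower without overlap, as for 11.4% of all tested probe sets under 4'-OH-2,5-DCB and 14.1% under 2,5-DCB. SRC2 changed by -1.17 on the log2 scale under 4'-OH-2,5-DCB (adjusted p 0.0157, between 0.0502 and 0.0781 without a control array) and -1.40 under 2,5-DCB (adjusted p 0.00572). Neither listed clock gene that could be tested, GI and AT5G52660, was called, of 16 listed. GI had log2 changes of -0.93 under 4'-OH-2,5-DCB (adjusted p 0.105) and 0.28 under 2,5-DCB (adjusted p 0.768).

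**Figure D5:**
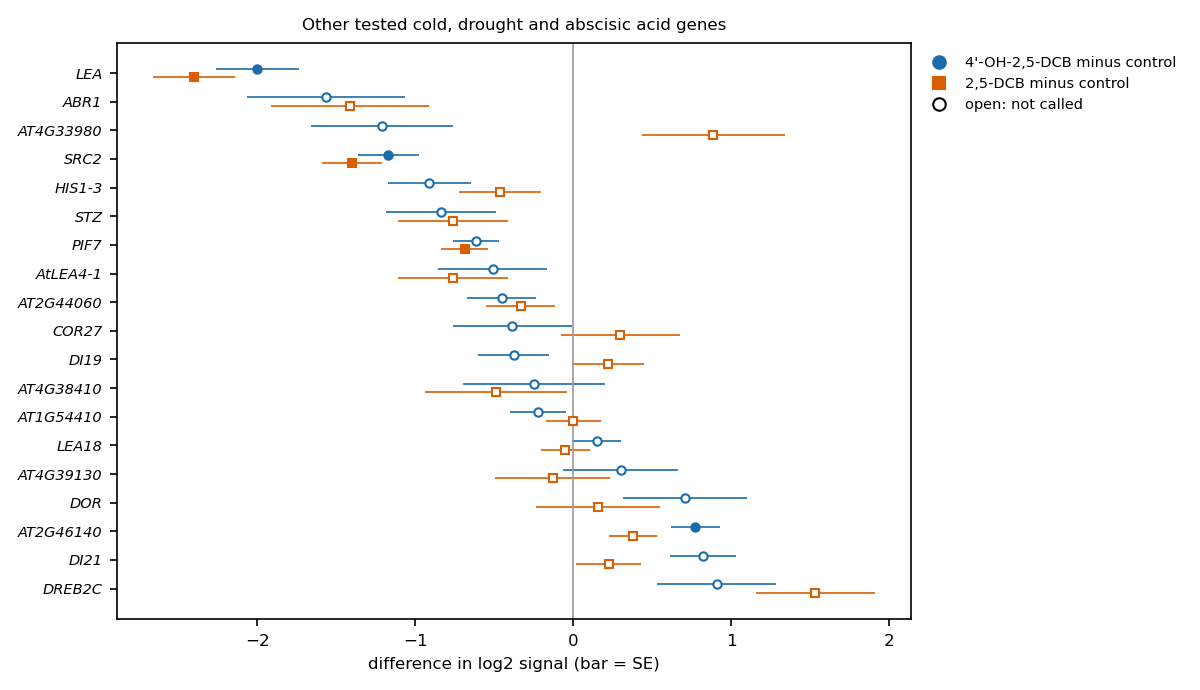
Log2 differences from control of the 19 other tested cold, drought and abscisic acid genes, with bars of 1 SE, circles for 4'-OH-2,5-DCB and squares for 2,5-DCB; filled symbols passed an adjusted p of 0.05. LEA and SRC2 are filled on the low side for both exposures, PIF7 for 2,5-DCB, and AT2G46140 on the high side for 4'-OH-2,5-DCB.

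Some markers of plant parts moved with the exposures too. The summed signal of the 4 tested root markers of 12 listed (PYK10, BGLU21, EXPA7 and EXPA18) lay between 11.48 and 12.22 on the log2 scale on the 4'-OH-2,5-DCB arrays, 11.33 and 11.81 on the 2,5-DCB arrays and 10.36 and 10.88 on the control arrays. Linear signals were summed, so the sum mostly follows PYK10, the brightest of the 4 on every array (10.31 to 10.81 in the control). BGLU21 rose in both comparisons (2.42 and 1.68, adjusted p 0.0117 and 0.034) and PYK10 under 4'-OH-2,5-DCB (1.11, adjusted p 0.0438), both beta-glucosidase genes. The shares called over all tested probe sets were 2.91% under 4'-OH-2,5-DCB (1.00% higher) and 4.65% under 2,5-DCB (1.82% higher). EXPA7 (limma adjusted p 0.303 and 0.489) and EXPA18 (0.557 and 0.836) were called in neither comparison. The PYK10 call was lost without any 1 array except 4'-OH-2,5-DCB replicate 1 (adjusted p between 0.0657 and 0.19), and that of BGLU21 under 2,5-DCB without control replicate 2 or 3, any 1 of the 2,5-DCB arrays or 4'-OH-2,5-DCB replicate 3 (between 0.0515 and 0.148). The sum of the 2 tested green shoot markers lay between 11.27 and 11.92 on the 4'-OH-2,5-DCB arrays, 11.26 and 11.57 on the 2,5-DCB arrays and 11.92 and 12.07 on the control arrays, and neither gene was called. The seed marker PAP85, 1 tested of 13 listed, averaged 3.34 under 4'-OH-2,5-DCB, 5.48 under 2,5-DCB and 3.77 in the control, and rose under 2,5-DCB (1.71, adjusted p 0.0199), a call lost without any 1 control array or 2,5-DCB replicate 1 or 3 (between 0.0575 and 0.0909). The part of such markers in the falls of COR15A, COR15B, KIN2, COR47 and KIN1 was not tested.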

How the data were processed

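The authors deposited a table of log2 signals with a row for each probe set. The submitters' processing notes name Affymetrix Expression Console as the software. No source used here gives its version, the summarization or the build behind the probe sets. The table held 38408 probe sets on 9 arrays, 0 missing values and 0 further sample columns. No normalization was added. The platform annotation pairs 16722 probe sets with 1 gene, and these were tested. Another 759 have several genes and 20927 are unnamed here. Symbols and gene order came from RefSeq (TAIR10.1). RefSeq gives no product names here, so the lists by wording used its symbols and synonyms.

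All 9 arrays were fitted in limma 3.58.1 (R 4.3.3) with 1 term per group, two-sided, and tested on simulated data first. Differences on the same array between COR15A and COR15B, KIN1 and KIN2, and COR47 and LTI30 used exact permutation tests. With 3 against 3 arrays these cannot give a p under 0.1. The 6 genes are named in full, and from each list those called in any contrast. Profile likeness names the 3 genes of highest r per gene and 10 for the mean. The 6 genes and the lists were chosen with earlier results of these data known. A list by wording was added after the thin coverage had been seen. Alternatives were quantile normalization, median centring, filters at the 25th and 50th percentile, testing every probe set, a fit of only the groups compared, trend and robust options, array weights, a minimum change of 1.5 times, a replicate block and leaving out each array. Between 0.901% and 3.13% of an array's values equal those of another array exactly, among them COR47 on 2,5-DCB replicate 1 and 4'-OH-2,5-DCB replicate 2. The number of arrays limits the precision.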

Additional observations from a re-analysis of the deposited data

How the results depend on the processing

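With 3 arrays a group, the calls for COR15A and COR15B held against control in all 20 alternatives, with log2 changes of -3.67 to -3.14 and -3.10 to -2.87 under 4'-OH-2,5-DCB and -3.21 to -2.52 and -2.39 to -2.04 under 2,5-DCB. KIN2 held in all 20 under 2,5-DCB. Of the 6 genes, 4 were called under 4'-OH-2,5-DCB, but 2 when only the arrays compared were fitted, 2 with a minimum change of 1.5 times and 2 to 4 with 1 array left out (2 without control replicate 2). Under 2,5-DCB 5 were called, but 3 with that minimum change and 3 to 5 with 1 array left out (3 without control replicate 1 or 2 or 2,5-DCB replicate 2 or 3). Between the exposures 0 were called, but 1 (KIN1) with array weights. KIN1 under 4'-OH-2,5-DCB ran between -0.546 and 0.0188 with 1 array left out. Between the exposures, LTI30 was -0.0701 after quantile normalization, and -0.444 to 0.801 with 1 array left out, KIN2 -0.0983 to 0.676 with 1 array left out, and PIF7 -0.000742 with medians centred. None of these was called, and the cause was not tested. The filter at the 50th percentile removed KIN1, so it has no value there. Quantile normalization put the median of all tested probe sets under 4'-OH-2,5-DCB at -0.04 (0.10 as deposited) and that of the 6 genes at -2.28 (-2.36 as deposited). Deviations from the group means showed no likeness between same-numbered arrays (r -0.247 to 0.0742, and -0.213 to 0.261 between differently numbered ones). With 3 arrays a group this cannot exclude a pairing or a shared batch, and the labels state neither. With a replicate block COR47 under 2,5-DCB had an adjusted p of 0.0659, leaving 4 of the 6 genes called under 4'-OH-2,5-DCB and 4 under 2,5-DCB.

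Counts over all tested probe sets moved far more. Under 4'-OH-2,5-DCB 486 became 856 after quantile normalization, 1204 with all probe sets, 98 with only the arrays compared, 1827 with array weights, 238 with the block, 47 with the minimum change, 93 to 1197 with 1 array left out and 1340 with quantile normalization of 8 arrays, a setting added after seeing the data. Under 2,5-DCB 777 became 1317 with all probe sets, 1725 with only the arrays compared, 2450 with array weights, 397 with the block, 96 with the minimum change, 181 to 2161 with 1 array left out and 2303 over those 8. Between the exposures 0 became 17 after quantile normalization, 21 and 17 with the filters, 9 with trend and robust options, 349 with array weights, 0 to 63 with 1 array left out and 82 over those 8.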

Other observations

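Probe sets with no gene in the annotation entered no comparison. Among their 15505 distinct rows of values, the probe set 13370449 had the highest r to the mean of the 6 genes over the 9 arrays, 0.997. It averaged 8.78 under 4'-OH-2,5-DCB, 8.75 under 2,5-DCB and 10.62 in the control. The next, 13361990 (r 0.995), averaged 6.08, 6.08 and 7.62 in the same groups. They were picked for this r, so their direction is no result of its own.

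AT4G33980, on the list of cold and dehydration target genes and singled out after its values had been seen, had 5.60, 5.55 and 4.74 on the 4'-OH-2,5-DCB arrays, 6.73, 7.31 and 8.15 on the 2,5-DCB arrays and 5.71, 7.20 and 6.61 on the control arrays. The exposed groups did not overlap each other, as for 15.2% of all tested probe sets. As 4'-OH-2,5-DCB minus 2,5-DCB they differed by -2.10, which did not pass (limma adjusted p 0.175).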
